A study of Mus musculus with 6 samples.

Results

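Genes of mitochondrial fatty acid oxidation were compared between 3 kinds of mouse adipocytes. A list of 32 genes was taken, and each gene was read from the probe set that carried its symbol and had the highest mean over the 6 arrays. A total of 31 of the 32 genes had such a probe set, out of 17720 genes measured in all. Cpt1b, the muscle-type carnitine palmitoyltransferase, was matched only through a probe set annotated to several genes and was not analysed here. The genes were chosen for their function, with results of these data already known.

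Fatty acids are burned in the mitochondrial matrix by a spiral of reactions called beta-oxidation. The carnitine shuttle brings long-chain acyl groups across the mitochondrial membranes, and acyl-CoA dehydrogenases then take electrons from them. A hydratase, a second dehydrogenase and a thiolase complete each turn and release acetyl-CoA, and the electron transfer flavoprotein passes the electrons to the respiratory chain. Brown fat is known for burning fatty acids in this way to make heat, whereas white fat mainly stores them. PPAR-alpha and the PGC-1 coactivators are known to raise the expression of many of these enzymes.

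Each group held 2 arrays, 1 per sample. Bone marrow-derived adipocytes were sorted out of floated gonadal fat cells of marrow transplant recipients. The marker of the donor cells was beta-galactosidase (LacZ) for replicate 2 and green fluorescent protein (GFP) for replicate 1, so these replicates differ in the marker used to collect them. The hosts keep their own adipocytes, and the sort separates these only by the marker. White adipocytes came from gonadal fat and brown adipocytes from the fat pad between the shoulder blades, which the labels call intrascapular. All groups were digested with collagenase, floated and sorted, about 5000 cells at a time, with RNA from at least 6 sorts pooled per sample and amplified before hybridisation. Strain, age and sex are not given in the sources used here, nor whether each replicate stood for a separate animal. The p-values therefore rest on the spread of these samples, part of which may be technical.

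Values are log2 expression values made by the authors with Robust Multi-array Average (RMA), and they ran from 1.67 to 13.97 over all probe sets. The number of arrays limits their precision. A gene is called where the adjusted p from limma, a linear model fitted across all 17720 genes, is below 0.05, and log2 differences are given ± their standard error (SE, n = 2 arrays per group). The labelled cell types were checked first. Ucp1, the uncoupling protein of brown fat, had log2 values of 7.68 and 4.93 in bone marrow-derived, 6.43 and 4.84 in white and 13.58 and 13.53 in brown arrays. Leptin (Lep), a hormone of white fat, stood at 10.07 and 10.55 in bone marrow-derived, 12.99 and 12.97 in white and 11.83 and 11.86 in brown arrays. Adiponectin (Adipoq), secreted by all adipocytes, stood at 12.70 and 11.86 in bone marrow-derived, 13.22 and 13.24 in white and 13.01 and 13.15 in brown arrays. Xist, which female cells express from the inactive X chromosome and which was picked after its values were seen, was at 10.87 and 10.85 in bone marrow-derived arrays, against 2.99 and 3.35 in white and 3.39 and 3.36 in brown arrays. Sex and marrow origin therefore cannot be told apart here.

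The genes of the pathway were lowest in bone marrow-derived, intermediate in white and highest in brown adipocytes by their average. The mean log2 value over the 31 genes was 10.21 and 9.81 in the bone marrow-derived arrays, 11.01 and 11.05 in the white arrays and 12.04 and 11.94 in the brown arrays. The plot of all genes by array shows the 3 groups as separate columns of points for most genes, with Cpt1a, Acadsb, Hsd17b10 and Acot11 among the exceptions. Values approached the upper end of the arrays in brown adipocytes, where 8 genes lay above 13 on each array, against 2 on each white and 0 on each bone marrow-derived array. Differences that reach this end may understate the true fold.

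**Figure D1:**
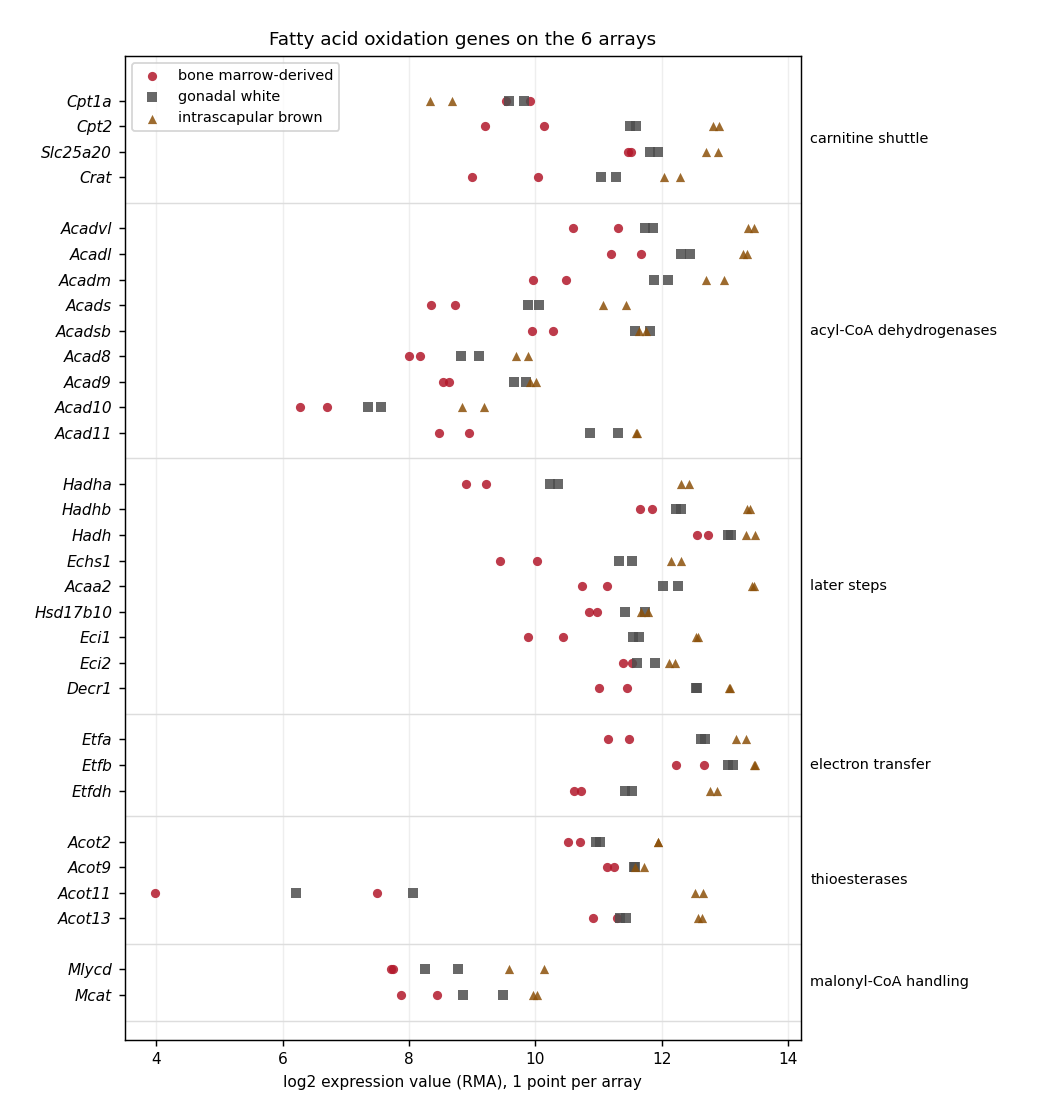
Log2 expression (x axis) of the 31 measured genes (rows, grouped by step of the pathway), with 1 point per array for bone marrow-derived (circles), white (squares) and brown (triangles) adipocytes. Brown arrays lie farthest to the right for most genes, while Cpt1a is lowest in brown arrays, at 8.67 and 8.33.

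Promoter sequences were available for 25 of the genes, in 26 windows that run from 250 bases before to 50 bases after the gene start (RefSeq, GRCm38.p6). The window of Hadha is shown because Hadha and Hadhb, which encode the subunits of the mitochondrial trifunctional protein, start from the same stretch of DNA in opposite directions, with 273 bases between their starts. Hadha lies on the minus and Hadhb on the plus strand, and their windows share 228 bases, at chr5:30155003-30155230. In the Hadha window below, written 5′ to 3′ on the minus strand (chr5:30154931-30155230), capitals mark the bases shared with the window of Hadhb.
Hadha: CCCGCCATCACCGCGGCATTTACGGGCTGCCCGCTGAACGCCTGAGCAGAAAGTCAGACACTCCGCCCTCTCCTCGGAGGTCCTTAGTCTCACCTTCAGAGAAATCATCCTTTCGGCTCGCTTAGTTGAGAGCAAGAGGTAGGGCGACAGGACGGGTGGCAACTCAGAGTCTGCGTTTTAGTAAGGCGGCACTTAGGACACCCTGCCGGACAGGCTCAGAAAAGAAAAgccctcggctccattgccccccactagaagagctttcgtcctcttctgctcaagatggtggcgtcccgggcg

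Binding sites of nuclear receptors such as the PPARs and the estrogen-related receptors are built on the core motif AGGTCA, which was searched on both strands. It was found in 4 of the 26 windows (15.4%), against 16.3% of 32851 windows of all genes, so its share lay near that of promoters in general. The direct repeat of this motif with a single base between, the PPAR type, was in 0 of the 26 windows and in 0.0396% of all windows. TCAAGGTCA, the estrogen-related receptor type, was in 0 of the 26 windows and in 0.423% of all windows. AGGTCA overlaps both of these longer motifs. A match is a description and not a known site. The 4 windows with the core motif are printed because they include 3 genes that were lower in bone marrow-derived than in brown adipocytes and Cpt1a, which was higher. Each is written 5′ to 3′ on the strand of its gene, with the motif or its reverse complement in capitals. Acadm is at chr3:153944594-153944893, Acadvl at chr11:70015379-70015678 and Echs1 at chr7:140116372-140116671, all on the minus strand, and Cpt1a at chr19:3323051-3323350 on the plus strand.
Acadm: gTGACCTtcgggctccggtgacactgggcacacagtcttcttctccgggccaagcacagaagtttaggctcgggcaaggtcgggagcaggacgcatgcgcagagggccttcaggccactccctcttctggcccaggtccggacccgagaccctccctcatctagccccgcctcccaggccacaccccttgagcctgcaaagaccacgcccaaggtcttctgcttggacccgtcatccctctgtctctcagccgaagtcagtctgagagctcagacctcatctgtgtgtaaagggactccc
Acadvl: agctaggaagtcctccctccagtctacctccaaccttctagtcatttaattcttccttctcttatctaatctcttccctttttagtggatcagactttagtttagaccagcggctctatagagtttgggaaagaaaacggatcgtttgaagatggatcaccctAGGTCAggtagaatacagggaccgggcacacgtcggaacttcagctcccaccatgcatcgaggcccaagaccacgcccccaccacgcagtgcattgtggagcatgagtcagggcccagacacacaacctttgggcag
Echs1: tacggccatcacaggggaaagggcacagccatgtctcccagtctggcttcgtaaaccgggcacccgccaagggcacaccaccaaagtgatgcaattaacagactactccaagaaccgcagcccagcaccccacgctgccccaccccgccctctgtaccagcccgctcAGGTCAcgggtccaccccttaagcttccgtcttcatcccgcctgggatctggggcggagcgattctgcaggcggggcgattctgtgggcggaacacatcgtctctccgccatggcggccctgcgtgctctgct
Cpt1a: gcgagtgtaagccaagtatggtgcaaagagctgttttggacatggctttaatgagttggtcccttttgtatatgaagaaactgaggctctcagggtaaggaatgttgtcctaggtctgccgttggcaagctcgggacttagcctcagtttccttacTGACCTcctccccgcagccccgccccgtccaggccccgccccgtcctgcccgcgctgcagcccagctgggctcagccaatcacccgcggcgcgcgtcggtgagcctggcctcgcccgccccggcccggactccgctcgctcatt

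The motif began 249 bases before the start of Acadm, 87 before that of Acadvl, 83 before that of Echs1 and 94 before that of Cpt1a. Over the 26 windows of the oxidation genes the share of G and C had a median of 61% (range 50.7% to 77%), against a median of 52.7% over all windows. It was 62.3% for Acadm, 50.7% for Acadvl, 63.7% for Echs1 and 62.3% for Cpt1a.

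The comparison of bone marrow-derived with white adipocytes sets cells of marrow origin beside conventional fat cells, both taken from gonadal fat. These groups also differ in Xist (10.87 and 10.85 against 2.99 and 3.35), so the comparison does not separate origin from sex. Bone marrow-derived adipocytes had lower values across the pathway. Limma called 17 of the 31 genes lower and 0 higher, where 13.6% of all genes were called lower and 12.2% higher, or 25.8% in either direction. At an unadjusted p under 0.05, 24 were lower and 0 higher. The share of all genes at an unadjusted p was not counted, here or for later counts of this kind. An ordinary linear model without moderation called 1 lower and 0 higher, where 1.7% of all genes were lower and 1.43% higher. The median log2 difference was -0.96, a 1.95-fold lower value, against -0.07 over all genes. Of all calls in this comparison 47.4% were higher, or 36.6% when each array was centred on its median. This centring moved all genes alike, by -0.17. The oxidation genes lay at -0.89 relative to the median of all genes, a distance that such centring cannot change. The arrays of the groups did not overlap in 29 genes, all lower in bone marrow-derived arrays, where 35.8% of all genes were lower without overlap. Without white replicate 2 the count of genes called lower was 5, where 4.80% of all genes were lower, and without white replicate 1 it was 11, where 8.90% were, in a fit that assumes the lone white array to vary like the other groups. Acadm, Acadsb, Acad11, Hadha and Etfa were called lower with each of the 6 arrays left out in turn.

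Adipocyte markers moved with this result. Of 7 measured markers (Adipoq, Lipe, Pnpla2, Fabp4, Cidec, Pparg and Lpl) 2 were called lower in bone marrow-derived than in white arrays, with a median difference of -0.95. Their mean log2 value was 12.11 and 11.58 in bone marrow-derived, 12.70 and 12.87 in white and 12.71 and 12.68 in brown arrays. In such bulk samples fewer adipocytes and less RNA per adipocyte cannot be told apart. When each array was centred on this mean, a scaling chosen after seeing the data, the median difference of the oxidation genes from white was -0.026, with 2 called lower (Cpt2 at -0.93 and Acad11 at -1.43) and 1 higher (Cpt1a at 0.96), where 3.88% of all genes were called lower and 37.2% higher. The difference from brown arrays was -1.03 on this scale, with 18 called lower and 1 higher, where 4.19% of all genes were lower and 38.4% higher. This scaling moved all genes alike, so that their median stood at 0.87 against white and 0.88 against brown. The oxidation genes lay at -0.89 and -1.90 relative to that median. Such a shift cannot change this distance, so its match to the deposited scale is no test of the scaling.

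Endothelial markers stood at a mean of 11.60 and 12.12 in bone marrow-derived, 8.57 and 7.51 in white and 11.06 and 10.57 in brown arrays, and against white arrays all 12 were called higher in the bone marrow-derived arrays. Vwf had the lowest value of this list on every array. Macrophage markers averaged 11.42 (GFP) and 8.80 (LacZ) in bone marrow-derived arrays, 11.43 and 9.96 on the white arrays and 8.86 and 8.27 on the brown arrays, with 0 of 12 called by limma in any comparison. At an unadjusted p under 0.05, 3 macrophage markers were higher in white than in brown arrays and 0 differed in the other comparisons. An ordinary linear model called 0 of these markers, which says little. It called 0 of all genes in white against brown. Of all genes it called 1.7% lower and 1.43% higher in bone marrow-derived against white, and 3.75% and 1.67% against brown. Fibroblast markers averaged 10.04 and 9.93 in bone marrow-derived, 9.71 and 8.75 in white and 8.06 and 7.43 in brown arrays. Their part in the differences of the oxidation genes was not tested. Skeletal muscle markers averaged 4.56 and 4.54 in bone marrow-derived, 5.22 and 5.06 in white and 6.50 and 4.56 in brown arrays. Brown replicate 1 thus had the highest muscle value, and the muscle enzyme Ckm stood at 5.31 on it, against 4.41 on brown replicate 2.

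**Figure D2:**
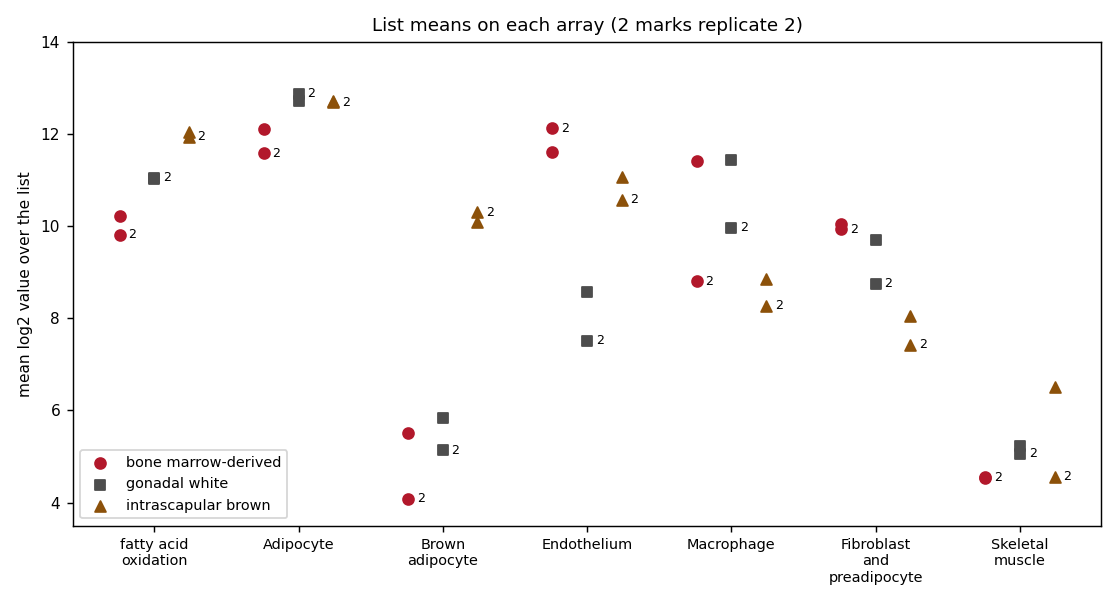
Mean log2 value (y axis) of the 31 oxidation genes and of 6 lists of cell type markers (x axis), with 1 point per array and replicate 2 marked. The oxidation genes are lowest in bone marrow-derived arrays (10.21 and 9.81), where adipocyte markers are lower too, and endothelial markers are lowest in white arrays (8.57 and 7.51).

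The carnitine shuttle differed gene by gene between bone marrow-derived and white adipocytes. Cpt2, which rebuilds acyl-CoA on the inner membrane, had log2 values of 10.14 and 9.20 in bone marrow-derived arrays, against 11.49 and 11.59 in white arrays. Both bone marrow-derived arrays were lower, the LacZ array by more, and the gene fell 3.66-fold (-1.87 ± 0.33, adjusted p = 0.0150 from limma). Crat, which exchanges short acyl groups such as acetyl with carnitine, had 10.03 and 9.00 in bone marrow-derived arrays, against 11.03 and 11.27 in white arrays (-1.64 ± 0.37, adjusted p = 0.0292 from limma). The GFP array lay above the LacZ array for both genes, and neither overlapped the white arrays. Cpt1a, the outer membrane enzyme that loads carnitine and is inhibited by malonyl-CoA, had 9.91 and 9.53 in bone marrow-derived arrays, against 9.83 and 9.58 in white arrays. These groups overlapped, with a difference of 0.02 and a 95% interval from -0.56 to 0.60. The carrier Slc25a20, which moves acylcarnitine across the inner membrane, stood at 11.52 and 11.46 in bone marrow-derived arrays, against 11.81 and 11.93 in white arrays, and did not pass (-0.38, 95% interval -0.79 to 0.03).

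Of 9 acyl-CoA dehydrogenases 8 were called lower in bone marrow-derived adipocytes than in white ones, with a median difference of -1.17. Acadm, which acts on medium chains, had 10.49 and 9.96 in bone marrow-derived arrays, against 12.09 and 11.87 in white arrays, a 3.39-fold fall (-1.76 ± 0.25, adjusted p = 0.00897 from limma). Acads, for short chains, had 8.73 and 8.34 in bone marrow-derived arrays, against 9.88 and 10.06 in white arrays (-1.43 ± 0.23). Acadl, for long chains, had 11.68 and 11.20 in bone marrow-derived arrays, against 12.45 and 12.30 in white arrays (-0.94 ± 0.21). The groups were apart for all of these, with a smaller gap for the long-chain enzyme. Acadvl, which takes the longest chains, had 11.31 and 10.59 in bone marrow-derived arrays, against 11.73 and 11.87 in white arrays, and missed the threshold (-0.85 ± 0.27, adjusted p = 0.0744 from limma).

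The dehydrogenases that serve amino acid breakdown fell as well. Acadsb, which oxidises a branched intermediate of isoleucine, had 10.27 and 9.95 in bone marrow-derived arrays, against 11.58 and 11.81 in white arrays (-1.58 ± 0.19, adjusted p = 0.00688 from limma). Acad8, the isobutyryl-CoA dehydrogenase of valine breakdown, differed by -0.88 ± 0.19. Acad11 showed the largest difference of the 31 genes from white, with 8.95 and 8.47 in bone marrow-derived arrays, against 10.86 and 11.30 in white arrays. It was 5.18-fold lower (-2.37 ± 0.25, adjusted p = 0.00526 from limma), and a second probe set of the gene gave -2.47. Acad9, known as an assembly factor of respiratory complex I, differed by -1.17 ± 0.16, and Acad10 by -0.96 ± 0.23. The second probe set of Acad10 was dim, with a mean of 2.45, and gave -0.06.

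In the later steps 5 of 9 genes were called lower in bone marrow-derived adipocytes than in white ones, with a median of -1.21. Echs1, the short-chain enoyl-CoA hydratase, had 10.02 and 9.43 in bone marrow-derived arrays, against 11.32 and 11.52 in white arrays (-1.69 ± 0.25, adjusted p = 0.00963 from limma). Acaa2, the thiolase that releases acetyl-CoA, had 11.14 and 10.73 in bone marrow-derived arrays, against 12.26 and 12.03 in white arrays (-1.21 ± 0.21). The auxiliary enzymes Eci1, an enoyl-CoA isomerase, and Decr1, the dienoyl-CoA reductase, which handle double bonds of unsaturated fatty acids, differed by -1.43 ± 0.23 and -1.32 ± 0.20. Hadha, whose promoter is printed above, had 8.90 and 9.22 in bone marrow-derived arrays, against 10.36 and 10.23 in white arrays (-1.23 ± 0.19, adjusted p = 0.0107 from limma). Its partner Hadhb had 11.84 and 11.66 in bone marrow-derived arrays, against 12.30 and 12.22 in white arrays, and did not pass (-0.51 ± 0.16, adjusted p = 0.0711 from limma). The other members that did not pass were Hadh (-0.43), Hsd17b10 (-0.66, adjusted p = 0.0510 from limma) and Eci2 (-0.29). Other probe sets gave -0.64 and -1.26 for Hadh and -0.67 for Hsd17b10. In a limma fit over all probe sets, the values of -1.26 (adjusted p = 0.0232) and -0.67 (adjusted p = 0.0444) were called. The absence of a call for these genes thus depends on the probe set.

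Electron transfer genes followed. Etfa, a subunit of the electron transfer flavoprotein, had 11.48 and 11.16 in bone marrow-derived arrays, against 12.68 and 12.62 in white arrays (-1.33 ± 0.19, adjusted p = 0.00894 from limma). Etfdh, which hands the electrons to ubiquinone, had 10.72 and 10.61 in bone marrow-derived arrays, against 11.53 and 11.42 in white arrays (-0.81 ± 0.16). Etfb, the other subunit, differed by -0.65 ± 0.20 and was not called, with 12.66 and 12.22 in bone marrow-derived arrays, against 13.13 and 13.04 in white arrays, where it lay near the upper end. All 3 genes were lower without overlap of the arrays.

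Of the 4 acyl-CoA thioesterases, which cut acyl-CoA into free fatty acid and CoA, limma called 0 between bone marrow-derived and white adipocytes, with 0 at an unadjusted p under 0.05. An ordinary linear model called 0 of the 4 too, which says little where it called only 1.7% of all genes lower and 1.43% higher. The thioesterase differences were -0.38 for Acot2 and -0.37 for Acot9, both mitochondrial, -0.29 for Acot13 and -1.40 ± 1.22 for Acot11. Acot11, described as a thioesterase induced by cold in brown fat, had 7.49 (GFP) and 3.98 (LacZ) in bone marrow-derived arrays, against 8.06 and 6.21 in white arrays. It spread more within groups than between them. Mlycd, which degrades malonyl-CoA and so relieves Cpt1a, differed by -0.78 (95% interval -1.47 to -0.08) and Mcat, of mitochondrial fatty acid synthesis, by -1.01 (95% interval -1.77 to -0.26). Neither passed over all genes.

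Against brown adipocytes nearly the whole pathway was lower in bone marrow-derived adipocytes. Limma called 29 of the 31 genes lower and 1 higher, where 11.7% of all genes were called lower and 8.71% higher, or 20.4% in either direction. The median log2 difference was -1.88, a 3.68-fold lower value, against 0.02 over all genes. Of all calls 42.7% were higher, or 28.5% with median centring, which moved all genes alike, by -0.19. The oxidation genes lay at -1.90 relative to the median of all genes, which median centring cannot change either. The arrays did not overlap in all 31 genes, of which 30 were lower and 1 higher, where 32% and 33% of all genes were lower and higher without overlap. This comparison shares the bone marrow-derived arrays with the comparison above. Marker lists moved here too, with 2 of 7 adipocyte markers called lower (median -0.80). Of 10 fibroblast markers 5 were called higher and 1 lower (median 2.42). Of 12 endothelial markers 1 was called higher, and 11 were higher without overlap (median 0.99). The part of these lists in the differences of the oxidation genes from brown adipocytes was not tested. With a single brown array in the fit fewer genes passed over the whole array. Of the oxidation genes 6 were lower without brown replicate 1, where 2.00% of all genes were, and 4 without brown replicate 2, where 1.35% of all genes were, while the median stayed at -1.85 and -1.91. Acads, Acad10, Hadha and Etfdh were called lower with each of the 6 arrays left out in turn.

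**Figure D3:**
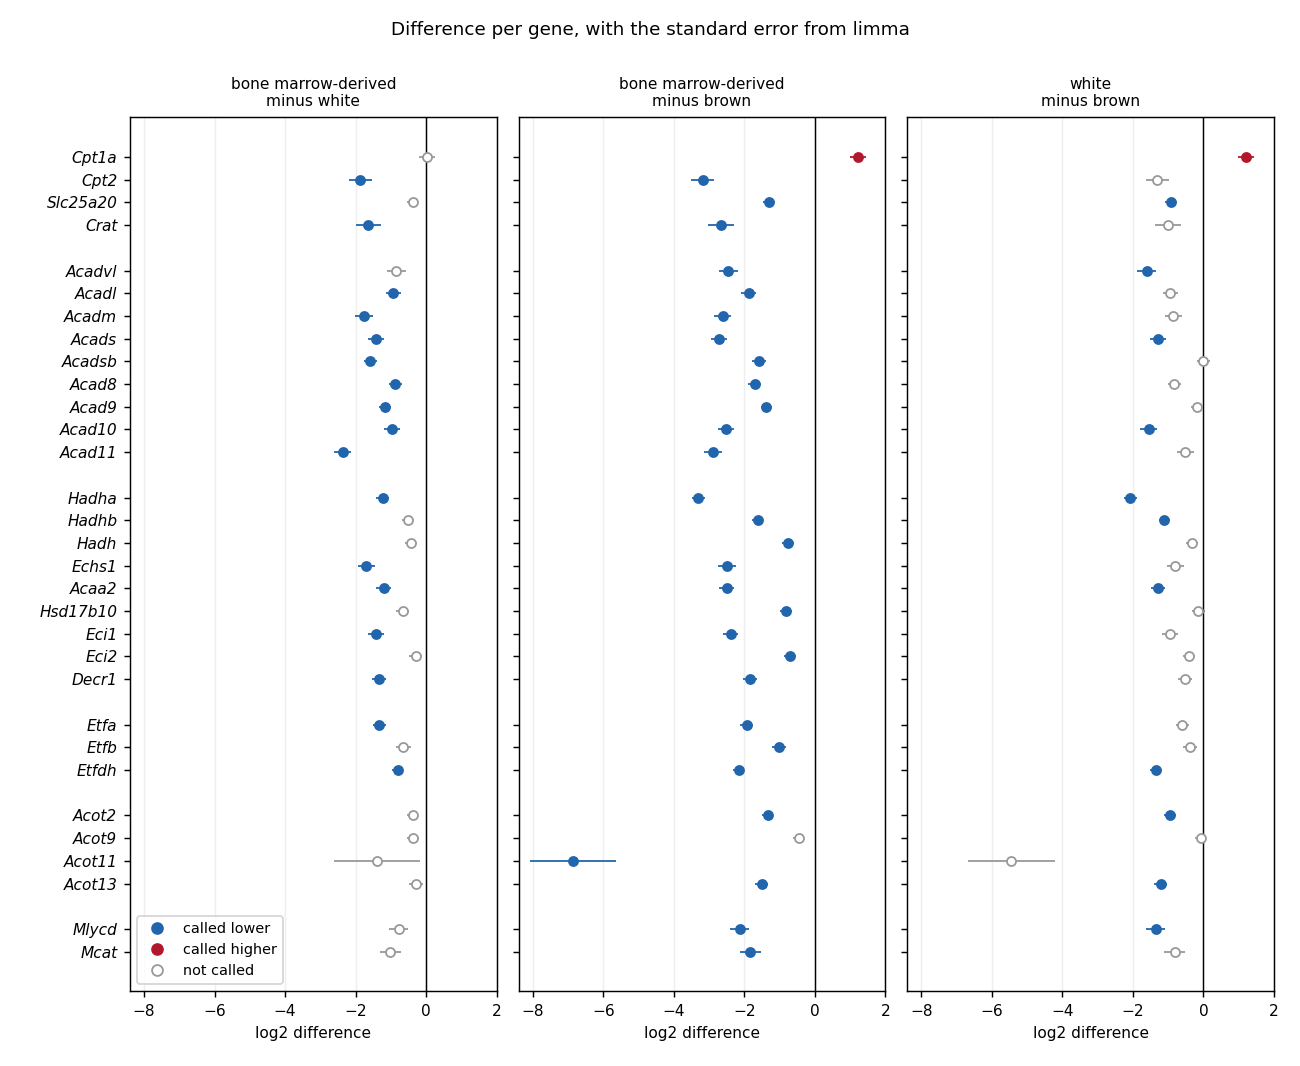
Log2 difference (x axis) of each gene (rows) with the SE from limma (bars) for bone marrow-derived minus white, bone marrow-derived minus brown and white minus brown adipocytes. Filled points passed an adjusted p of 0.05, which were 17, 30 and 12 genes, and Cpt1a is the gene to the right of 0 against brown adipocytes (1.22 and 1.20).

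Hadha showed the smallest adjusted p against brown. It had 8.90 and 9.22 in bone marrow-derived arrays, against 12.30 and 12.43 in brown arrays, and was 9.87-fold lower (-3.30 ± 0.19, adjusted p = 0.00206 from limma). Hadhb had 11.84 and 11.66 in bone marrow-derived arrays, against 13.40 and 13.34 in brown arrays (-1.62 ± 0.16). The subunits with the shared start region thus differed unequally on these arrays, and Hadhb lay near the upper end in brown adipocytes. Cpt2 was 9.09-fold lower (-3.18 ± 0.33), with 12.90 and 12.81 in brown arrays. Crat differed by -2.65 ± 0.37 and Slc25a20 by -1.30 ± 0.16, where a second probe set of Slc25a20 gave -2.57.

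All 9 acyl-CoA dehydrogenases were called lower in bone marrow-derived than in brown adipocytes, from -1.37 for Acad9 to -2.89 for Acad11, with a median of -2.46. Acadvl had 11.31 and 10.59 in bone marrow-derived arrays, against 13.46 and 13.36 in brown arrays (-2.46 ± 0.27, adjusted p = 0.00634 from limma). Acads was 6.58-fold lower, with 11.44 and 11.06 in brown arrays (-2.72 ± 0.23), and Acadm 6.14-fold lower, with 12.99 and 12.69 in brown arrays (-2.62 ± 0.25). Acadl, at 13.35 and 13.29 in brown arrays, differed by -1.88 ± 0.21. A dimmer second probe set of Acadl, with a mean of 3.75, gave -2.77. Acad10 had 6.28 and 6.70 in bone marrow-derived arrays, against 9.19 and 8.83 in brown arrays (-2.52 ± 0.23).

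All 9 genes of the later steps were called lower in bone marrow-derived than in brown adipocytes, with a median of -1.85. Acaa2 had 11.14 and 10.73 in bone marrow-derived arrays, against 13.42 and 13.46 in brown arrays (-2.50 ± 0.21), and 2 further probe sets gave -2.89 and -4.10. Echs1 differed by -2.49 ± 0.25 and Eci1 by -2.39 ± 0.23. The smallest differences were in Eci2 (-0.71), Hadh (-0.76) and Hsd17b10 (-0.82), which serves isoleucine breakdown and also belongs to mitochondrial RNase P. Hadh, the short-chain hydroxyacyl-CoA dehydrogenase, stood at 12.73 and 12.56 in bone marrow-derived arrays, against 13.47 and 13.34 in brown arrays, near the upper end of the arrays. Its 2 other probe sets gave -1.16 and -1.77.

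The electron transfer genes were called lower in bone marrow-derived than in brown adipocytes in 3 of 3 cases. Etfdh was 4.45-fold lower (-2.15 ± 0.16, adjusted p = 0.00300 from limma), with 12.88 and 12.76 in brown arrays. Etfa had 13.34 and 13.17 in brown arrays and differed by -1.93 ± 0.19, and Etfb by -1.02 ± 0.20. Of the thioesterases 3 of 4 were called lower. Acot11 had the largest difference of the 31 genes. It stood at 7.49 and 3.98 in bone marrow-derived arrays, against 12.52 and 12.65 in brown arrays (-6.85 ± 1.22, adjusted p = 0.0200 from limma), and a second, dimmer probe set gave -4.93 ± 0.23. The difference of Acot11 was -8.60 without the GFP array and -5.09 without the LacZ array. Acot13 differed by -1.50 ± 0.19 and Acot2 by -1.33 ± 0.16. Acot9 did not pass, with 11.13 and 11.25 in bone marrow-derived arrays, against 11.71 and 11.58 in brown arrays (-0.46, 95% interval -0.85 to -0.06). Mlycd was 4.38-fold lower (-2.13 ± 0.27) and Mcat 3.57-fold lower (-1.84 ± 0.30).

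Cpt1a ran the other way. Its log2 values were 9.91 and 9.53 in bone marrow-derived arrays, against 8.67 and 8.33 in brown arrays, and it was 2.33-fold higher (1.22 ± 0.23, adjusted p = 0.0227 from limma). White arrays, at 9.83 and 9.58, were also above the brown arrays (1.20 ± 0.23, adjusted p = 0.0374 from limma). The 2 other probe sets of Cpt1a gave 0.60 and 0.63 for bone marrow-derived minus brown and 0.86 and 0.79 for white minus brown, in the same direction but not called. With 1 array left out, the call of bone marrow-derived against brown was lost without the GFP array and without either brown array, and that of white against brown without either white or either brown array.

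**Figure D4:**
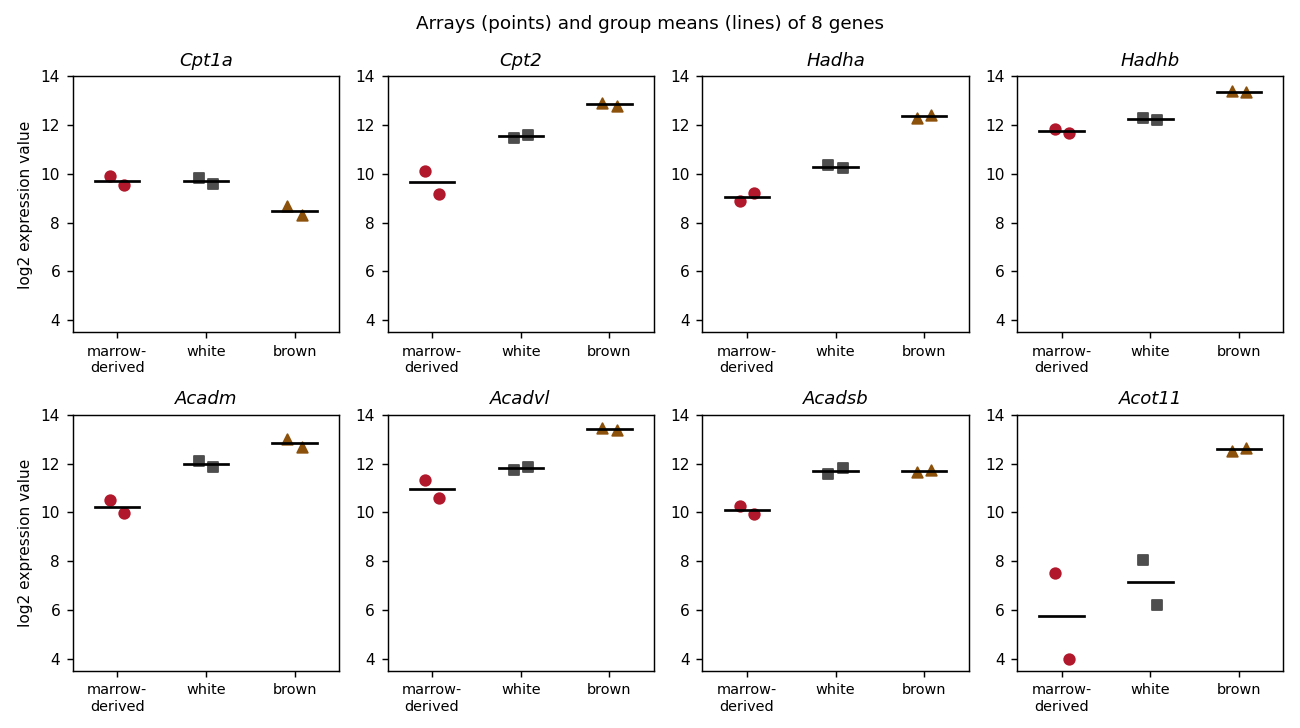
Log2 expression (y axis) of 8 genes on each array (points) with the group mean (line), for bone marrow-derived, white and brown adipocytes. Cpt1a is lowest in brown arrays, Acadsb has means of 11.69 in white and 11.70 in brown arrays, and Acot11 lies between 3.98 and 8.06 outside brown arrays.

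White and brown adipocytes were compared to set the scale of a difference between conventional types. White adipocytes had lower values for part of the pathway. Limma called 11 of the 31 genes lower and 1 higher, where 5.34% of all genes were called lower and 3.87% higher, or 9.21% in either direction. The median log2 difference was -0.92, a 1.89-fold lower value, against 0.02 over all genes. In 28 genes both white arrays were lower than both brown arrays and in 1 both were higher, where 29.7% and 32.4% of all genes did not overlap in these directions. Each group is shared with a comparison above. Adipocyte markers were called in 0 of 7 cases by limma, with 0 at an unadjusted p under 0.05 and a median of 0.15. Without overlap of the arrays 4 of them were higher and 1 lower in white adipocytes. An ordinary linear model called 0 of all 17720 genes in this comparison and so cannot speak to these markers. The mean over the oxidation genes differed from that over the adipocyte markers by -1.69 and -1.81 on white and -0.68 and -0.74 on brown arrays. Other lists did move: 10 of 12 endothelial markers were called lower in white than in brown arrays (median -2.94) and 4 of 10 fibroblast markers higher (median 1.27). Macrophage markers were called in 0 of 12 cases, but all 12 were higher in white arrays without overlap (median 1.99). The part of these lists in the differences of the oxidation genes between white and brown adipocytes was not tested.

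Hadha again led the later steps, with 10.36 and 10.23 in white arrays, against 12.30 and 12.43 in brown arrays, a 4.20-fold lower value (-2.07 ± 0.19, adjusted p = 0.00923 from limma). Hadhb (-1.11 ± 0.16) and Acaa2 (-1.30 ± 0.21) were called lower too. Among the dehydrogenases Acadvl had 11.73 and 11.87 in white arrays, against 13.46 and 13.36 in brown arrays (-1.61 ± 0.27), and Acad10 (-1.56 ± 0.23) and Acads (-1.28 ± 0.23) also passed. Acadm, at 12.09 and 11.87 in white arrays, against 12.99 and 12.69 in brown arrays, did not (-0.86, adjusted p = 0.0992 from limma).

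Acadsb stood at 11.58 and 11.81 in white arrays, against 11.64 and 11.75 in brown arrays, with overlap and a 95% interval of the difference from -0.49 to 0.49. Acot9 (-0.083, 95% interval -0.48 to 0.31), Hsd17b10 (-0.15, 95% interval -0.61 to 0.31) and Acad9 (-0.20, 95% interval -0.61 to 0.22) did not pass either. Etfdh was 2.54-fold lower in white adipocytes (-1.34 ± 0.16, adjusted p = 0.0137 from limma), while Etfa (-0.61) and Etfb (-0.38) did not pass. Of the thioesterases Acot13 (-1.22 ± 0.19) and Acot2 (-0.95 ± 0.16) were called lower. Acot11, with 8.06 and 6.21 in white arrays, against 12.52 and 12.65 in brown arrays, missed the threshold (-5.45 ± 1.22, adjusted p = 0.0568 from limma), and its second probe set gave -4.17 ± 0.23. Slc25a20 (-0.92 ± 0.16) and Mlycd (-1.35 ± 0.27) passed, whereas Cpt2 (-1.31 ± 0.33) and Crat (-1.01 ± 0.37) did not. No call of this comparison held with every array left out in turn. Without white replicates 1 and 2, 2 and 1 of the oxidation genes were lower, where 2.91% and 1.92% of all genes were. Without brown replicates 1 and 2 limma called 0 of them lower, with 16 and 18 at an unadjusted p under 0.05, and only 7 and 5 of all 17720 genes were called lower in these fits.

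Replicates lay further apart in bone marrow-derived than in the other arrays. The LacZ array was lower than the GFP array in 26 of the 31 genes, with a median gap of -0.37, against 0.09 over all genes. Brown replicate 2 was lower than replicate 1 in 23 genes, with a median of -0.06, and white replicate 2 in 11, with a median of 0.10. The median absolute gap of the oxidation genes was 0.38 in bone marrow-derived, 0.18 in white and 0.11 in brown arrays. Over all genes it was 0.28, 0.23 and 0.21, so the bone marrow-derived replicates lay further apart there as well. Crat and Acot11 differed by more than 1 between the GFP and LacZ arrays. The adipocyte marker mean was lower on the LacZ array too, by the values given above.

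Further genes of the pathway, from a list of 46 of which 42 were measured, were read from the same fit. In bone marrow-derived against white adipocytes 21 were called lower and 2 higher (median -1.04), where 13.6% of all genes were lower and 12.2% higher. Against brown adipocytes 27 were lower and 2 higher (median -1.91), where 11.7% and 8.71% of all genes were. In white against brown 11 were lower and 1 higher (median -0.80), where 5.34% and 3.87% of all genes were. The same shares of all genes apply to the smaller lists that follow. All 4 genes that convert propionyl-CoA, the end product of odd-chain oxidation, were called lower in bone marrow-derived than in white and than in brown adipocytes, with medians of -1.80 and -2.41. The list of 12 regulators and targets had 7 lower against white, 9 lower against brown, and 6 lower and 1 higher in white against brown.

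Ppara, the nuclear receptor PPAR-alpha, had 5.00 and 3.95 in bone marrow-derived, 5.75 and 6.57 in white and 10.54 and 10.05 in brown arrays. It was called lower in bone marrow-derived than in white (-1.69 ± 0.46, adjusted p = 0.0497 from limma) and than in brown adipocytes (-5.82 ± 0.46), and lower in white than in brown (-4.13 ± 0.46). Ppargc1a, the coactivator PGC-1 alpha, had 4.73 and 3.40 in bone marrow-derived, 7.18 and 7.57 in white and 9.00 and 9.40 in brown arrays. On the LacZ array Ppara and Ppargc1a lay below 4.18, the lower quartile of gene means, as did Acot11 (3.98) and Ucp3 (3.65). The size of the differences of these genes is therefore uncertain. The gap of Ppargc1a from brown was -5.14 ± 0.47 and that from white -3.31 ± 0.47, or -5.80 and -3.98 without the GFP array and -4.47 and -2.65 without the LacZ array, and that of white from brown did not pass (-1.82 ± 0.47, adjusted p = 0.0757 from limma). Ppargc1b, its homologue, was 12.7-fold lower in bone marrow-derived than in brown adipocytes and 8.11-fold lower in white than in brown. Against white, Ppargc1b did not pass in bone marrow-derived adipocytes (-0.65 ± 0.19). These 3 regulators had their lowest group mean in bone marrow-derived arrays, and so did 30 of the 31 oxidation genes. The share of all genes with their lowest group mean in bone marrow-derived arrays was not counted. Of the 12 listed regulators and targets, 12 had a lower mean in bone marrow-derived than in white arrays and 11 than in brown arrays. The exception, Nrip1, had a mean of 9.94 in bone marrow-derived and 9.75 in brown arrays. Of all 17720 genes, 9856 had a lower mean in bone marrow-derived than in white arrays and 8567 than in brown arrays. Whether these regulators account for the differences of the oxidation genes was not tested.

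Acacb, the acetyl-CoA carboxylase that makes the malonyl-CoA which inhibits Cpt1a, had 10.53 and 10.66 in bone marrow-derived, 9.58 and 11.04 in white and 12.82 and 12.98 in brown arrays. It was called lower than in brown adipocytes both in bone marrow-derived (-2.31 ± 0.47) and in white adipocytes (-2.59 ± 0.47). In white adipocytes it was -1.86 without white replicate 1 and -3.32 without white replicate 2, and both calls were lost, with differences of 0.071 and 0.30, when the probe set of median rank was read. Cpt1c, a homologue of Cpt1a known mainly from brain, was higher in bone marrow-derived adipocytes, with 8.45 and 8.19, against 5.52 and 5.36 in white and 5.23 and 4.90 in brown arrays (2.88 ± 0.20 and 3.26 ± 0.20). Fabp3, the heart-type fatty acid binding protein, had 7.57 and 5.53 in bone marrow-derived, 8.41 and 6.02 in white and 13.74 and 13.66 in brown arrays. By group means it was 142-fold lower in bone marrow-derived than in brown adipocytes, or 288-fold without the GFP array and 69.9-fold without the LacZ array. In white adipocytes Fabp3 was 89.5-fold lower than in brown, or 205-fold without white replicate 1 and 39.1-fold without white replicate 2.

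Ucp3, an uncoupling protein homologue, differed by -3.29 ± 0.79 between bone marrow-derived and white adipocytes and by -4.82 ± 0.79 between bone marrow-derived and brown. The enoyl-CoA hydratase family members Echdc2 (-3.38 ± 0.55) and Echdc3 (-2.65 ± 0.50) and the transcription factor Klf15 (-3.01 ± 0.50) were lower in bone marrow-derived adipocytes than in white ones, and Echdc3 was 12.5-fold lower than in brown. As linear folds these values moved by over 1.5 times when either bone marrow-derived array was left out. Against white the difference without the GFP array was -4.53 for Ucp3, -4.11 for Echdc2, -3.40 for Echdc3 and -3.72 for Klf15. Without the LacZ array it was -2.05 for Ucp3, -2.65 for Echdc2, -1.89 for Echdc3 and -2.30 for Klf15. Against brown, Ucp3 differed by -6.06 without the GFP array and -3.58 without the LacZ array, and Echdc3 was 21.0-fold lower without the GFP array and 7.40-fold lower without the LacZ array. Acss1, the mitochondrial acetyl-CoA synthetase (-2.17 ± 0.26), and Acsf3, a mitochondrial malonyl-CoA synthetase (-1.88 ± 0.19), were lower in white than in brown adipocytes.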

How the data were processed

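RNA from 6 samples, 2 in each of 3 groups, was hybridised to 1 array each. The authors deposited log2 values made with RMA in Partek, per the submitters' processing notes, for 43057 probe sets, and background correction and normalization were not repeated. The annotation gave 1 symbol to 33565 probe sets, several to 857 and none to 8635, and 33376 were matched to RefSeq (GRCm38.p6) by gene ID. Each of 17720 genes was read from its brightest probe set by the mean of all arrays.

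One model of the 3 group means was fitted to all 6 arrays with limma 3.58.1 in R 4.3.3 (3 residual and 2.35 prior degrees of freedom), with Benjamini-Hochberg adjustment over all genes and a threshold of 0.05. The code was tested on simulated data. Further genes were named by a rule: the 6 called genes with the largest differences in each comparison, plus Ppara, Ppargc1a and Acacb. Members and lists were chosen with earlier results of these data known. Alternatives covered scaling, choice of probe set, a filter on low values, the variance prior, the arrays fitted, a replicate block and leaving out each array.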

Additional observations from a re-analysis of the deposited data

How the results depend on the processing

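With 2 arrays per group and RMA values reaching 13.97 at the upper end, brown values above 13 limit the differences that can be seen, and probe sets shared by related genes may cross-hybridise. With 1 array left out in turn, the genes called lower numbered 5 to 20 (bone marrow-derived against white), 4 to 27 (bone marrow-derived against brown) and 0 to 15 (white against brown), those called higher 0, 0 to 1 and 0 to 1, and the medians ranged from -1.18 to -0.79, -2.11 to -1.64 and -0.98 to -0.88. An ordinary linear model without moderation called 1, 18 and 0 lower and 0 higher in each, where 24, 30 and 19 were lower at an unadjusted p under 0.05. A trended prior called 23, 30 and 15 lower, where 14.6%, 12.8% and 6.42% of all genes were. A fit of only the compared groups called 12, 27 and 15 lower, where 7.74%, 9.68% and 6.86% of all genes were. Over all genes the number called also changed by more than 1.5 times in some settings: the ordinary linear model called 301 lower and 254 higher, 665 and 296, and 0 and 0, and with only the compared groups 1372 and 1355 in the first comparison. Replicates share only a number in the labels. Same-numbered arrays correlated in their deviations from the group means with r = 0.21 (bone marrow-derived and white), -0.0038 (bone marrow-derived and brown) and 0.28 (white and brown) across genes. With the replicate block 16, 27 and 9 oxidation genes were lower and 0, 1 and 1 higher. Of all genes 12.1%, 10.1% and 3.61% were lower in that fit and 10.6%, 7.22% and 3.52% higher. Median centring gave a median of -1.13 against white, and the probe set of median rank a median of -0.79 for white against brown, with 0 called higher than in brown in bone marrow-derived and in white arrays. Centring on adipocyte markers called 2, 18 and 10 lower and 1, 1 and 0 higher, with medians of -0.026, -1.03 and -1.01. Of all genes 3.88%, 4.19% and 4.56% were lower on that scale and 37.2%, 38.4% and 3.61% higher.

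Some single genes changed sign, and the cause was not tested. Against white, Cpt1a was at -0.15 with median centring, -0.13 with the mean over probe sets and -0.26 with the probe set of median rank. Hadhb was at 0.11 with the mean over probe sets. Acacb was at -0.22 against white and 0.071 against brown with the probe set of median rank, and at 0.30 in white against brown. With 1 array left out, the range against white was -0.17 to 0.21 for Cpt1a, -3.16 to 0.35 for Acot11, -0.44 to 1.01 for Acacb and -1.86 to 0.53 for Fabp3. In white against brown it was -0.12 to 0.11 for Acadsb and -0.31 to 0.0026 for Hsd17b10. Centring on adipocyte markers, which moves all genes, turned these against white: Slc25a20 0.56, Acadvl 0.091, Acad8 0.063, Hadhb 0.43, Hadh 0.51, Hsd17b10 0.27, Eci2 0.64, Etfb 0.29, Etfdh 0.13, Acot2 0.56, Acot9 0.56, Acot13 0.65, Mlycd 0.16, Fabp3 0.28, Ppargc1b 0.29 and Acss1 0.30. Against brown it turned Hadh (0.090), Hsd17b10 (0.036), Eci2 (0.14) and Acot9 (0.40).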

Other observations

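The 17 oxidation genes with several probe sets had 23 further probe sets. Of these, 20 had the same sign as the chosen probe set in bone marrow-derived against white, 23 in bone marrow-derived against brown and 22 in white against brown, and 0 pairs were called in opposite directions by limma. Both other Cpt1a probe sets (-0.26 and -0.16) and a dimmer Hadhb probe set (1.43, adjusted p = 0.084 from limma) had the opposite sign against white.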
